A study of Homo sapiens with 12 samples.

Results

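The 46 genes described here encode components of the B-cell receptor (BCR) pathway, from the receptor chains to the calcium, protein kinase C (PKC), RAS and NF-κB arms. The list was proposed with earlier results of these data known, and its genes were taken by symbol from a table of raw RNA sequencing counts with 43735 genes. BTK, the SRC kinases, the PI3K subunits, the NF-κB subunits and AP-1 were left out of the 46 genes and are given only as a separate list. All 46 symbols were present in the table, and 41 had enough reads to be tested.

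Total RNA was sequenced from MM1S and MM1R, multiple myeloma cell lines from the tumour of a single patient. MM1S is sensitive to glucocorticoids (GC) and MM1R is resistant. Each line was left untreated (UT) or received withaferin A (WA), a steroidal lactone of the plant Withania somnifera, at 1 µM for 3 h, which gave 4 groups of 3 cultures. The MM1S cultures came from passages 16, 22 and 23 and the MM1R cultures from passages 4, 6 and 7, with an untreated and a WA-treated culture at each passage. Because no passage number was shared by both lines, the line and the passage range cannot be told apart, and each kind of cell is represented by 1 line. Whether untreated cultures received a vehicle was not stated.

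The BCR is a membrane immunoglobulin that signals through the paired chains CD79A and CD79B. Antigen binding leads to phosphorylation of these chains, recruitment of the kinase SYK, and assembly of a complex around the adaptor BLNK that contains phospholipase C-γ. The second messengers that phospholipase C produces release calcium, which activates calcineurin and NFAT factors, and activate PKC, which feeds the complex of BCL10 and MALT1 upstream of NF-κB. Plasma cells, the cell type of myeloma, have largely switched off the receptor end of this pathway while many of the downstream enzymes are shared with other receptors and stay expressed.

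The 12 libraries held 17625110 to 19368343 counted reads, with a median of 18555625. The markers fixed for plasma cells were present at 10 or more reads in 9 of 9 cases. MS4A1 and PAX5, defining genes of mature B cells, reached at most 2 and 3 reads. The summed plasma cell marker level was 10919 to 12273 CPM (read counts scaled to library size) in untreated MM1S and 16998 to 18686 CPM in untreated MM1R. With WA it was 9948 to 12354 CPM in MM1S and 13212 to 16938 CPM in MM1R. JCHAIN alone had means of 6435 CPM in untreated MM1S and 11996 CPM in untreated MM1R, and of 6320 and 10451 CPM with WA. Untreated, 8 of the 9 markers were fitted higher in MM1R, and CD38 was lower, with means of 91.3 CPM in MM1S and 44.5 CPM in MM1R. The mature B-cell list, of which 5 of 8 genes reached 10 reads, summed to 86.8 to 107 CPM in untreated MM1S and 88.4 to 117 CPM in untreated MM1R. MPO and CD3G were at 0 reads throughout, CD3D reached 1 read, and LYZ reached 2 reads. The myeloid list summed to 18.4 to 32.8 CPM over all groups. The T-cell list, most of which was TRAT1 at 287 to 965 reads, with CD3E at 63 to 211 reads, summed to 31.0 to 44.3 CPM in untreated MM1S and 54.2 to 58.2 CPM in untreated MM1R. With WA this sum was 22.5 to 32.5 CPM in MM1S and 39.3 to 43.5 CPM in MM1R. The part of the plasma cell and T-cell marker differences in the results on the BCR genes was not tested. In bulk RNA, fewer cells that express a gene and less of its RNA per cell cannot be told apart.

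At the receptor end of the pathway 3 of 8 genes had too few reads for a test, and 2 further genes elsewhere also failed the filter. CD22, an inhibitory co-receptor, had at most 1 read in any library. CD72, another inhibitory co-receptor, had at most 9 reads. PTPRC, which encodes the phosphatase CD45, had at most 8 reads. INPP5D, which encodes the inositol phosphatase SHIP1, had at most 5 reads. HRAS had at most 1 read. For PTPRC, INPP5D and HRAS the table held an additional entry of the same gene name with a copy suffix, which was at 0 reads too. Of 1226 protein-coding genes with such an additional entry, 826 (67.4%) had 12 or fewer reads over the 12 libraries, compared with 4684 (26.6%) of 17639 protein-coding genes with a single entry. The low counts of PTPRC, INPP5D and HRAS are therefore uncertain as levels of expression.

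Levels of different genes were compared per kilobase of annotated exon (GENCODE v44 lifted to GRCh37). The counted gene models were not given in the sources used here, so these levels are approximate. RAC2, a small GTPase of blood cells, had the highest level, with a mean of 264 CPM per kb. It was followed by the adaptor SHC1 at 70.3, the exchange factor VAV1 at 63.8, the phosphatase PTPN6 at 43.0, the calcineurin subunit PPP3R1 at 36.1 and the adaptor GRB2 at 35.6 CPM per kb. The receptor genes spread over a wide range on this scale. CD79B lay at 14.7 and CR2, the complement receptor CD21, at 7.10 CPM per kb, whereas CD79A lay at 1.30, FCGR2B at 0.132 and CD81 at 0.084 CPM per kb.

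The first comparison set MM1R against MM1S, without and with WA, and asks which of these genes differ between GC-resistant and GC-sensitive cells. Counts were compared by edgeR (quasi-likelihood test), and p-values were adjusted by Benjamini-Hochberg over 14085 genes, with a limit of 0.01. In untreated cells 5 of 41 genes (12.2%) passed, beside 4.83% of all genes tested. CD79A, BLNK, PRKCD and NFATC1 were higher in MM1R, 4 genes beside 2.57% of all genes, and VAV2 was lower, 1 gene beside 2.26%. In WA-treated cells 6 of 41 genes passed, beside 4.94% of all genes, namely the same 5 in the same directions and CD79B, which was higher in MM1R. That gave 5 higher, beside 2.63% of all genes, and 1 lower, beside 2.31%. CD79A had fewer than 10 reads in every MM1S library and entered the test only through MM1R, so its place in these counts is not support for them. With at least 10 reads required in every library, 38 of the genes were tested without CD79A, CD81 and FCGR2B, and 4 passed in each condition, beside 4.08% of all genes untreated and 3.82% with WA. A log2 fold change of at least 1 in size in addition was met by 4 genes untreated, beside 2.97% of all genes, and by 5 genes with WA, beside 3.04%. The median log2 fold change over the 41 genes was -0.01 untreated and -0.04 with WA, against 0.01 and -0.01 over all genes. The 3 libraries of MM1R all lay above or all lay below those of MM1S for 21 genes untreated and 15 with WA, beside 32.3% and 29.1% of all genes.

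CD79A, the Igα signalling chain of the receptor, was close to the counting limit in MM1S. Its reads numbered 2 to 5 in each of the 6 MM1S libraries and 38 to 82 in the MM1R libraries. In CPM, untreated MM1S had 0.259, 0.103 and 0.149 at passages 16, 22 and 23, and untreated MM1R had 3.64, 3.40 and 2.22 at passages 4, 6 and 7. With WA the values were 0.271, 0.214 and 0.218 CPM in MM1S and 4.37, 3.54 and 2.62 CPM in MM1R. All 6 MM1R libraries thus lay above all 6 MM1S libraries. The fitted log2 fold change was 4.13 ± 0.39 (SE) untreated and 3.87 ± 0.37 with WA, given as a description because only the MM1R libraries brought the gene past the filter. From the summed reads alone the level was 18.3-fold higher in untreated MM1R, with a 95% interval of 9.71 to 38.9 that covers counting error only. With WA this ratio was 15.2, with an interval of 8.65 to 29.0. The gene lies at chr19:42381349-42385439 on the plus strand of GRCh37, with 5 exons.

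CD79B, the Igβ partner of CD79A, was expressed in both lines. Untreated MM1S had 30.8, 18.5 and 16.4 CPM at passages 16, 22 and 23, and untreated MM1R had 41.2, 46.7 and 50.8 CPM. With WA the values were 24.3, 12.01 and 14.8 CPM in MM1S and 36.4, 40.6 and 43.1 CPM in MM1R. The groups did not overlap in either condition, with the MM1S culture of passage 16 nearest to MM1R. The log2 fold change was 1.08 ± 0.25 untreated, which missed the limit (edgeR adjusted p = 0.0125), and 1.23 ± 0.25 with WA, which passed it (edgeR adjusted p = 0.00595). The WA call was lost without the WA-treated MM1S culture of passage 22 or 23 or any 1 of the 3 WA-treated MM1R cultures, with adjusted p-values up to 0.0323, and in a fit of the 6 libraries compared (adjusted p = 0.0101, edgeR).

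The other tested receptor genes did not pass. FCGR2B, the inhibitory Fc receptor, had 0.363 to 1.04 CPM in untreated MM1S and 1.15 to 1.41 CPM in untreated MM1R, with a log2 fold change of 0.95 ± 0.38. With WA its log2 fold change was 1.57 ± 0.41. FCGR2B had 5 to 9 reads in the WA-treated MM1S libraries and 16 to 25 in the WA-treated MM1R libraries. Its fold changes are given as a description, because the MM1R libraries brought the gene past the filter. CR2 ranged from 30.2 to 41.9 CPM over the 12 libraries and CD81, a tetraspanin of the co-receptor complex, from 0.374 to 0.878 CPM.

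BLNK, the adaptor that links SYK to phospholipase C-γ, was higher in MM1R. Untreated MM1S had 32.1, 27.8 and 30.9 CPM and untreated MM1R had 53.4, 52.5 and 59.6 CPM. With WA the values were 36.6, 31.3 and 33.4 CPM in MM1S and 51.8, 60.5 and 62.4 CPM in MM1R. The lines did not overlap in either condition, and the spread within each group was small. The log2 fold change was 0.87 ± 0.11 untreated (edgeR adjusted p = 0.000288) and 0.78 ± 0.11 with WA (edgeR adjusted p = 0.000610), and it passed without any 1 of the 12 libraries. BLNK lies at chr10:97948927-98031344 on the minus strand of GRCh37, and 3.45% of its exon bases overlap exons of ZNF518A on the opposite strand. Whether the counting used strand was not given in the sources used here, so reads of these overlapping genes could be mixed.

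The remaining kinases and adaptors were all fitted higher in MM1R, but none passed. SYK, the kinase recruited by the receptor chains, had 86.1 to 95.7 CPM in untreated MM1S and 106 to 126 CPM in untreated MM1R, without overlap (log2 fold change 0.38 ± 0.10, edgeR adjusted p = 0.0220). DOK3, an inhibitory adaptor, had 19.1, 9.82 and 8.75 CPM in untreated MM1S and 33.5, 29.4 and 29.9 CPM in untreated MM1R. Its log2 fold change was 1.30 ± 0.32 untreated (edgeR adjusted p = 0.0172) and 1.42 ± 0.32 with WA (edgeR adjusted p = 0.0121). The MM1S culture of passage 16 again stood nearer to MM1R than the other two. DAPP1, GRB2 and SHC1 had log2 fold changes of 0.14, 0.11 and 0.15 untreated.

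PRKCD, the calcium-independent isoform PKCδ, was the member of the phospholipase and PKC group that passed. Untreated MM1S had 28.3, 31.6 and 30.2 CPM and untreated MM1R had 77.6, 81.8 and 84.8 CPM. With WA the values were 19.7, 21.8 and 16.1 CPM in MM1S and 53.2, 46.1 and 35.0 CPM in MM1R. The MM1R libraries lay above the MM1S libraries in both conditions. MM1R exceeded MM1S by 1.44 ± 0.15 on the log2 scale untreated (edgeR adjusted p = 3.82e-05) and 1.22 ± 0.15 with WA (edgeR adjusted p = 0.000170), and the call held without any 1 library. PLCG1 and PLCG2, the phospholipase C-γ enzymes, differed by -0.16 and -0.01 on the log2 scale untreated. PRKCB, the PKC isoform best known from B cells, ranged from 6.99 to 18.7 CPM with overlapping lines. PRKCD lies at chr3:53190025-53226733 on the plus strand of GRCh37.

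NFATC1, a calcium-dependent transcription factor that calcineurin activates, had 10.8, 5.89 and 4.82 CPM in untreated MM1S and 32.8, 28.8 and 25.5 CPM in untreated MM1R. With WA the values were 13.0, 4.32 and 4.04 CPM in MM1S and 26.1, 29.5 and 19.3 CPM in MM1R. The lines did not overlap, and passage 16 was the highest MM1S culture in both conditions. Fitted log2 fold changes were 2.02 ± 0.39 untreated (edgeR adjusted p = 0.00405) and 1.81 ± 0.39 with WA (edgeR adjusted p = 0.00801). The untreated call was lost without the untreated MM1S culture of passage 22 or 23 or any untreated MM1R culture, with adjusted p-values up to 0.0262. The WA call was lost without any 1 of 9 libraries, with adjusted p-values up to 0.0444. These were all 6 MM1R libraries, both MM1S cultures of passage 22 and the treated MM1S culture of passage 23. Requiring 10 reads in all libraries, or fitting only the 6 libraries compared, also ended it, with adjusted p-values up to 0.0215. The related factors NFATC2 and NFATC3 differed by -0.03 and -0.18 untreated. Among the inositol trisphosphate receptors, which release calcium from the endoplasmic reticulum, ITPR3 was fitted lower in MM1R by -0.42 ± 0.12 (edgeR adjusted p = 0.0385) and did not pass. ITPR1 ranged from 3.77 to 9.23 CPM, and the calcineurin subunits PPP3CA, PPP3CB and PPP3R1 had log2 fold changes of 0.01, -0.17 and -0.15.

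VAV2, a widely expressed exchange factor for Rac GTPases, was the gene that was lower in MM1R. Untreated MM1S had 13.0, 22.3 and 26.4 CPM at passages 16, 22 and 23 and untreated MM1R had 0.885, 1.32 and 1.17 CPM. With WA the values were 8.72, 20.02 and 22.3 CPM in MM1S and 0.960, 0.956 and 1.46 CPM in MM1R. The lines did not overlap, and passage 16 was the lowest MM1S culture in both conditions. On the log2 scale the difference was -4.19 ± 0.39 untreated (edgeR adjusted p = 1.64e-05) and -3.92 ± 0.39 with WA (edgeR adjusted p = 2.72e-05). From summed reads the level in MM1S was 18.5-fold that in MM1R untreated (95% counting interval 14.3 to 24.3) and 15.3-fold with WA (11.7 to 20.2). The call held without any 1 library. VAV1, the blood-cell paralogue, was present at 228 to 337 CPM in all libraries, with a log2 fold change of 0.18 ± 0.11 untreated, and VAV3 ranged from 6.36 to 17.4 CPM. RAC1 and RAC2, GTPases that Vav proteins activate, had log2 fold changes of 0.32 and 0.28 untreated and did not pass. VAV2 lies at chr9:136627016-136857726 on the minus strand of GRCh37, with 30 exons.

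**Figure D1:**
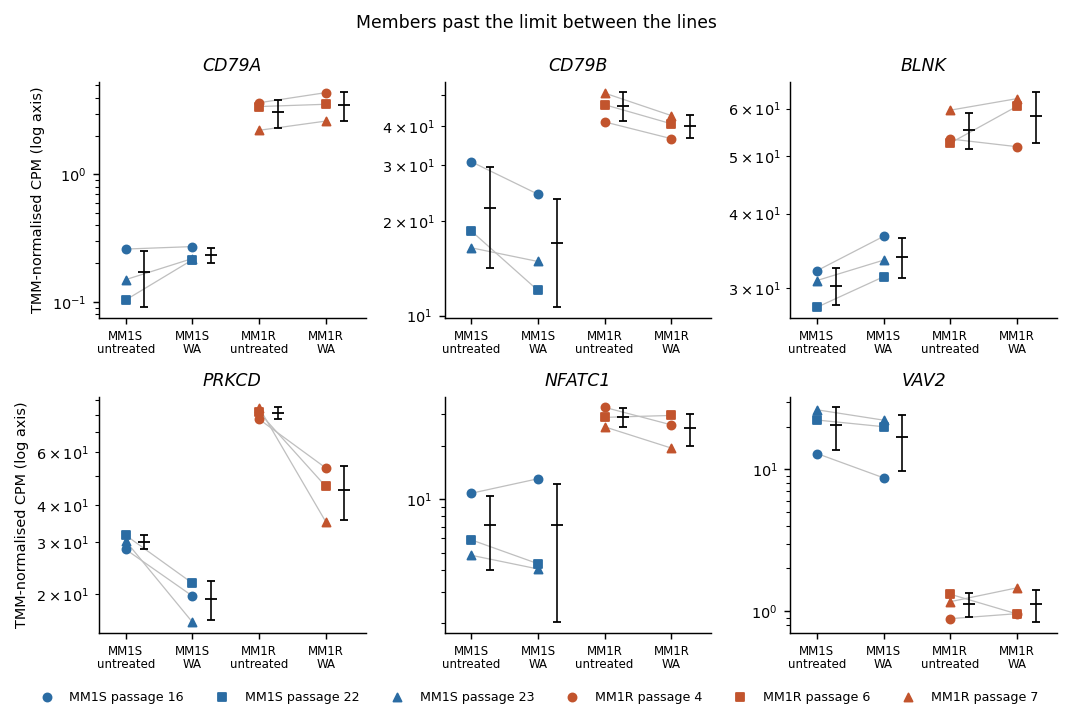
TMM-normalised CPM (log axis) of the 6 genes that passed between the lines in untreated or WA-treated cells, 1 point per library, with shape for the passage and grey lines joining the untreated and WA-treated culture of a passage. Black bars give the mean and SD of 3 cultures, and in every panel the MM1R libraries do not overlap the MM1S libraries of the same condition, lying below them for VAV2 and above them for the other 5 genes.

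Promoter sequence is shown for CD79A and VAV2, the genes at the ends of the line comparison, and for BLNK, chosen after their values were seen and each with a single start in the table. Each line gives the 250 bases before the gene's start in RefSeq on GRCh38.p14, 5′ to 3′ on the gene's strand, with capitals marking the GC box GGGCGG on either strand.
CD79A, chr19:41877029-41877278, plus strand: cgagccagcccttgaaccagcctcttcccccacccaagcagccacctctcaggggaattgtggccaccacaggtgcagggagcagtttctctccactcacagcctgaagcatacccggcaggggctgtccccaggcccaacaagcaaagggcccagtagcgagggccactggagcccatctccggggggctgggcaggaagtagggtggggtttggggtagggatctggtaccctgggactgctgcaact
BLNK, chr10:96271570-96271819, minus strand: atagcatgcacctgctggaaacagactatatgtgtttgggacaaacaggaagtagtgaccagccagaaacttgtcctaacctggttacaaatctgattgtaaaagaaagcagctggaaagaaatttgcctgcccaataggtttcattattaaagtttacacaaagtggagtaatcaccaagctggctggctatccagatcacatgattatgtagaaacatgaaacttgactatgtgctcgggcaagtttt
VAV2, chr9:133992325-133992574, minus strand: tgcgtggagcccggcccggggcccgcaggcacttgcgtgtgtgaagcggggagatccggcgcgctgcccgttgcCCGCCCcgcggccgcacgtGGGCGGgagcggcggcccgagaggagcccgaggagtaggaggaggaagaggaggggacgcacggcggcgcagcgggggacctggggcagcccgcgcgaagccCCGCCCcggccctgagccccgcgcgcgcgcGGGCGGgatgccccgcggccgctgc
The window of VAV2 held 4 GC boxes and 40 CG dinucleotides at 81.2% G and C. The window of CD79A held no GC box and 4 CG dinucleotides at 64% G and C, and that of BLNK held no GC box and 1 CG dinucleotide at 40.4%. Among the other genes higher in MM1R, the 3 windows of PRKCD held 3, 2 and 1 GC boxes and the 2 windows of NFATC1 held 1 and 6. A GC box was present in 42.6% of 35116 windows of this kind, and their medians were 11 CG dinucleotides and 58% G and C. The octamer ATTTGCAT, searched on both strands, was in none of the 3 windows and in 1.63% of all windows. Of the 46 genes, 38 had a promoter entry.

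None of the RAS and mitogen-activated protein kinase (MAPK) genes or the NF-κB arm passed between the lines. All 5 tested RAS and MAPK genes were fitted lower in MM1R untreated, with log2 fold changes from -0.46 to -0.14. The lowest was NRAS at -0.46 ± 0.13 (edgeR adjusted p = 0.0336), with 141 to 167 CPM in MM1S and 108 to 119 CPM in MM1R. MALT1, the protease of the BCL10 complex, had 136, 152 and 159 CPM in untreated MM1S and 109, 105 and 92.9 CPM in untreated MM1R. Its log2 fold change was -0.54 ± 0.14 in both conditions (edgeR adjusted p = 0.0246 untreated and 0.0242 with WA). PTPN6, the phosphatase SHP-1, ranged from 161 to 297 CPM with overlapping lines.

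**Figure D2:**
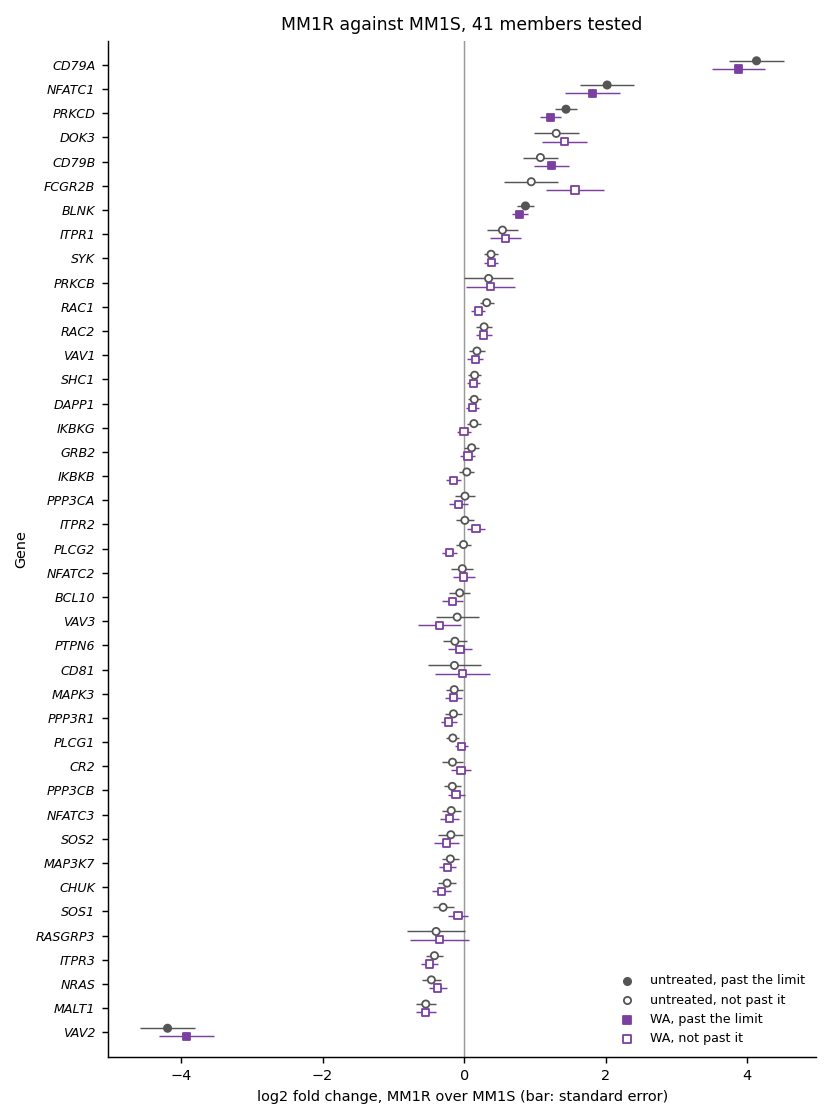
Log2 fold change of MM1R over MM1S for the 41 tested genes, untreated (circles) and with WA (squares), with bars of 1 standard error derived from the edgeR F statistic. Filled symbols passed the limit of 0.01 on the adjusted p, and CD79A at 4.13 and VAV2 at -4.19 stand at the ends of a list whose median is -0.01 untreated.

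The limits of the line comparison concern passage 16 and the tool. The untreated MM1S culture of passage 16 stood apart from those of passages 22 and 23. Its chi-square values per degree of freedom were 25.3 and 34.8, against 8.74 between passages 22 and 23. In WA-treated MM1S passage 16 stood out less, with 48.7 and 41.8 against 29.0. In untreated MM1R passages 4 and 7 differed by 46.03 on this measure. Without both passage 16 cultures, an alternative chosen after seeing the data, 9 genes passed untreated and 11 with WA, beside 8.87% and 11.6% of all genes. DESeq2 passed 9 genes untreated, adding CD79B, DOK3, SYK and MALT1, beside 8.75% of all genes. With WA it passed 10, adding DOK3, SYK, MALT1 and ITPR3, beside 9.09% of all genes. On simulated counts 5.92% of the DESeq2 calls between the lines were false untreated and 2.92% with WA. For edgeR these shares were 2.61% and 0%. The calls that DESeq2 added are therefore less certain.

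The other comparison set WA against untreated cells within each line and asks which BCR genes respond within 3 h. The limit was an adjusted p of 0.05. In MM1R 8 of 41 genes (19.5%) passed, beside 14.0% of all genes tested, with ITPR2, NFATC2, NFATC3, SOS1 and BCL10 higher (7.55% of all genes were) and PLCG1, PRKCD and IKBKB lower (6.46%). In MM1S 5 of 41 (12.2%) passed, beside 10.5% of all genes, with NFATC3 and BCL10 higher (6.25% of all genes were) and PLCG1, PRKCD and NRAS lower (4.23%). BCL10, NFATC3, PLCG1 and PRKCD passed in both lines with the same direction, which is 50% of the MM1R genes and 80% of the MM1S genes. Over all genes 8.55% passed in both lines with the same direction, which is 61.0% of those called in MM1R and 81.6% of those called in MM1S. No change reached a log2 fold change of 1 in size. The median over the 41 genes was -0.13 in MM1R and -0.10 in MM1S, against 0.01 over all genes in each line. The WA-treated libraries all lay above or all below the untreated ones for 18 genes in MM1R and 17 in MM1S, beside 33.3% and 30.3% of all genes.

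Cultures of the same line and passage deviated together, so the WA effect was also fitted with the passage as a replicate block. The blocked edgeR fit passed 17 genes in MM1R (6 higher and 11 lower), beside 29.1% of all genes, and 15 in MM1S (6 higher and 9 lower), beside 24.1%. It kept all 8 and all 5 genes of the unblocked fit, and 13 genes (31.7%) passed in both lines, beside 19.9% of all genes. Of these 5 were higher and 8 lower, against 1415 higher and 1383 lower among the 14085 genes. Counted by pairs, 16 of the 41 genes (39.0%) were lower with WA in all 6 pairs, beside 19.96% of all genes, and 9 (22.0%) were higher in all 6 pairs, beside 20.04% of all genes.

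No receptor gene passed with WA in the unblocked fit. CD79B was lower in all 6 pairs, by -0.23 to -0.17 on the log2 scale in MM1R and by -0.61 to -0.14 in MM1S. In the blocked fit it passed in MM1S (-0.37 ± 0.11, edgeR adjusted p = 0.0270) and not in MM1R. CD79A had log2 fold changes of 0.19 ± 0.28 in MM1R and 0.45 ± 0.52 in MM1S.

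Among the kinases and adaptors, SYK, DAPP1, GRB2 and DOK3 were lower with WA in all 6 pairs and SHC1 was higher in all 6. None passed without the block. SYK had log2 fold changes of -0.21 ± 0.10 in each line. With the replicate block DOK3 passed in MM1R (-0.36 ± 0.10, edgeR adjusted p = 0.0178) and in MM1S (-0.51 ± 0.11, edgeR adjusted p = 0.00662). SHC1 passed in both lines with the block (0.22 and 0.23, edgeR adjusted p = 0.0407 and 0.0358), and GRB2 passed in MM1R alone (-0.27, edgeR adjusted p = 0.0228).

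PRKCD and PLCG1, 2 of the 4 phospholipase and PKC genes, fell with WA in both lines. PRKCD went from 77.6, 81.8 and 84.8 CPM to 53.2, 46.1 and 35.0 CPM at passages 4, 6 and 7 of MM1R, and from 28.3, 31.6 and 30.2 CPM to 19.7, 21.8 and 16.1 CPM at passages 16, 22 and 23 of MM1S. The treated and untreated libraries did not overlap in either line. The log2 fold change was -0.86 ± 0.15 in MM1R (edgeR adjusted p = 0.00188) and -0.64 ± 0.15 in MM1S (edgeR adjusted p = 0.0158). The MM1R call held without any 1 library, and the MM1S call was lost without untreated MM1S passage 22 or 23 or treated passage 23, with adjusted p-values up to 0.0741. PRKCD in WA-treated MM1R remained above PRKCD in untreated MM1S in every library.

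PLCG1 went from 87.0, 80.4 and 79.2 CPM to 62.3, 65.8 and 63.8 CPM in MM1R, and from 95.8, 90.1 and 89.7 CPM to 63.8, 64.9 and 68.8 CPM in MM1S. The groups were again separate. On the log2 scale the change was -0.36 ± 0.09 in MM1R (edgeR adjusted p = 0.0166) and -0.48 ± 0.09 in MM1S (edgeR adjusted p = 0.00428). The MM1R call was lost without the WA-treated culture of passage 4 or 7, with adjusted p-values up to 0.0680, and when no filter was applied (adjusted p = 0.0776, edgeR). The MM1S call held without any 1 library. PLCG2, the phospholipase C-γ isoform that B cells mainly use, had log2 fold changes of -0.30 ± 0.11 in MM1R and -0.10 ± 0.11 in MM1S. It passed with the replicate block in MM1R alone (edgeR adjusted p = 0.0324). PRKCB had log2 fold changes of 0.14 ± 0.34 and 0.11 ± 0.35.

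The NFAT factors NFATC2 and NFATC3 were higher with WA, whereas NFATC1 showed no common direction over the pairs. NFATC3 went from 42.6, 45.9 and 37.4 CPM to 56.0, 67.4 and 66.4 CPM in MM1R, and from 41.4, 46.8 and 54.6 CPM to 62.3, 78.9 and 78.2 CPM in MM1S. It rose in 6 of 6 pairs, by 0.59 ± 0.14 in MM1R (edgeR adjusted p = 0.0116) and 0.62 ± 0.14 in MM1S (edgeR adjusted p = 0.0115). These calls were lost without untreated MM1R passage 7 (adjusted p = 0.0535, edgeR), and without untreated passage 22 or treated passage 23 in MM1S (up to 0.0525). NFATC2 went from 58.0, 61.2 and 50.3 CPM to 75.5, 94.5 and 74.0 CPM in MM1R, with a log2 fold change of 0.53 ± 0.16 (edgeR adjusted p = 0.0400). The call was lost without any 1 of 7 libraries, namely untreated MM1S passages 22 and 23, the untreated MM1R cultures and treated MM1R passages 4 and 6, with adjusted p-values up to 0.139. In MM1S it went from 64.1, 54.2 and 54.2 CPM to 103, 75.2 and 67.1 CPM, with a log2 fold change of 0.51 ± 0.16 that missed the limit (edgeR adjusted p = 0.0558). With the replicate block NFATC2 passed in MM1S as well (0.49 ± 0.09, edgeR adjusted p = 0.00305). NFATC1 was higher in 1 of 3 pairs of each line.

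ITPR2, an inositol trisphosphate receptor, went from 93.9, 85.8 and 65.5 CPM to 105, 114 and 109 CPM in MM1R. Its log2 fold change was 0.42 ± 0.13 (edgeR adjusted p = 0.0494), close to the limit, and the call was lost without any 1 of 9 libraries, with adjusted p-values up to 0.171. These were the untreated MM1S cultures, treated MM1S passage 23, untreated MM1R passages 6 and 7 and the treated MM1R cultures. It was also lost with the size factors of DESeq2, without a filter and in a fit of the 6 libraries compared, with adjusted p-values up to 0.0698. In MM1S it went from 77.3, 81.6 and 84.5 CPM to 84.7, 108 and 98.96 CPM (0.26 ± 0.13, edgeR adjusted p = 0.243). The calcineurin catalytic subunit PPP3CB was lower in all 6 pairs and passed in both lines only with the replicate block (-0.30 in MM1R and -0.36 in MM1S, edgeR adjusted p = 0.0294 and 0.0132). PPP3CA, PPP3R1 and ITPR3 had log2 fold changes between -0.11 and 0.10.

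Of the RAS arm, SOS1, an exchange factor that loads RAS, was higher with WA and NRAS was lower. SOS1 went from 67.9, 59.2 and 42.1 CPM to 82.9, 87.0 and 77.6 CPM in MM1R (log2 fold change 0.55 ± 0.15, edgeR adjusted p = 0.0250). This call was lost without untreated MM1R passage 6 or 7 or treated passage 4 or 6, with adjusted p-values up to 0.0737. In MM1S it went from 72.7, 66.1 and 69.3 CPM to 93.4, 92.4 and 77.0 CPM (0.34 ± 0.15, edgeR adjusted p = 0.171), and it passed there with the replicate block (0.33 ± 0.11, edgeR adjusted p = 0.0451). Its paralogue SOS2 was higher in all 6 pairs and passed with the block in MM1S (0.36 ± 0.12, edgeR adjusted p = 0.0459). NRAS went from 141, 155 and 167 CPM to 90.0, 130 and 109 CPM in MM1S (log2 fold change -0.49 ± 0.13, edgeR adjusted p = 0.0291). That call was lost without untreated MM1S passage 22 or 23 or treated passage 16 or 23, with adjusted p-values up to 0.122, and in a fit of the 6 libraries compared (adjusted p = 0.0756, edgeR). In MM1R it went from 108, 119 and 109 CPM to 83.5, 91.9 and 79.5 CPM (-0.40 ± 0.13, edgeR adjusted p = 0.0574), and it passed there with the block (edgeR adjusted p = 0.00630).

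RASGRP3, an exchange factor that diacylglycerol brings to the membrane, differed most between the unblocked and the blocked fit. At passages 16, 22 and 23 of MM1S it went from 257, 142 and 98.3 CPM to 166, 90.0 and 66.2 CPM. At passages 4, 6 and 7 of MM1R it went from 187, 117 and 73.1 CPM to 119, 74.8 and 58.2 CPM. The highest culture was thus more than 2-fold above the lowest within each of the 4 groups, and every treated culture was below its own untreated culture. Without the block the log2 fold change was -0.58 ± 0.41 in MM1R (edgeR adjusted p = 0.401) and -0.63 ± 0.41 in MM1S (edgeR adjusted p = 0.388). With the replicate block it was -0.55 ± 0.09 in MM1R (edgeR adjusted p = 0.000720) and -0.62 ± 0.09 in MM1S (edgeR adjusted p = 0.000335). In the annotation 13.7% of its exon bases overlap exons of FAM98A on the opposite strand.

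In the NF-κB arm BCL10, the scaffold that binds MALT1, rose with WA. It went from 22.0, 21.0 and 19.9 CPM to 25.4, 27.3 and 37.3 CPM in MM1R, and from 22.5, 23.2 and 19.9 CPM to 35.8, 28.7 and 36.6 CPM in MM1S. The groups did not overlap, and the WA-treated MM1R culture of passage 7 was well above the other two. The log2 fold change was 0.52 ± 0.15 in MM1R (edgeR adjusted p = 0.0358) and 0.62 ± 0.15 in MM1S (edgeR adjusted p = 0.0188). The MM1R call was lost without any untreated MM1R culture, treated MM1R passage 7 or untreated MM1S passage 22, with adjusted p-values up to 0.133, and in a fit of the 6 libraries compared (adjusted p = 0.0556, edgeR). The MM1S call was lost without untreated passage 23 or treated passage 16 or 23, with adjusted p-values up to 0.0862.

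IKBKB, the catalytic subunit IKKβ of the kinase that releases NF-κB, fell in MM1R from 49.1, 41.8 and 48.7 CPM to 36.1, 32.3 and 34.1 CPM (log2 fold change -0.45 ± 0.10, edgeR adjusted p = 0.0116). The call was lost without treated passage 6 or 7 of MM1R, with adjusted p-values up to 0.0581. In MM1S it went from 46.5, 44.3 and 45.3 CPM to 36.2, 36.9 and 40.3 CPM, with a log2 fold change of -0.26 ± 0.10 (edgeR adjusted p = 0.124). With the replicate block it passed in MM1S (edgeR adjusted p = 0.0477). CHUK, the paralogue IKKα, was lower in all 6 pairs and passed with the block in MM1R (-0.34, edgeR adjusted p = 0.0252). MALT1 was lower in all 6 pairs, with log2 fold changes of -0.24 ± 0.14 in each line that did not pass in either fit. The scaffold IKBKG and the kinase MAP3K7 had log2 fold changes between -0.09 and 0.07.

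The Vav and Rac genes did not pass without the block. VAV1 and RAC2 were lower in all 6 pairs, and RAC2 passed with the replicate block in both lines (-0.27 in MM1R and -0.28 in MM1S, edgeR adjusted p = 0.0190 and 0.0214). VAV2 changed in MM1R by less than its standard error of 0.45 on the log2 scale, and had a log2 fold change of -0.27 ± 0.31 in MM1S.

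**Figure D3:**
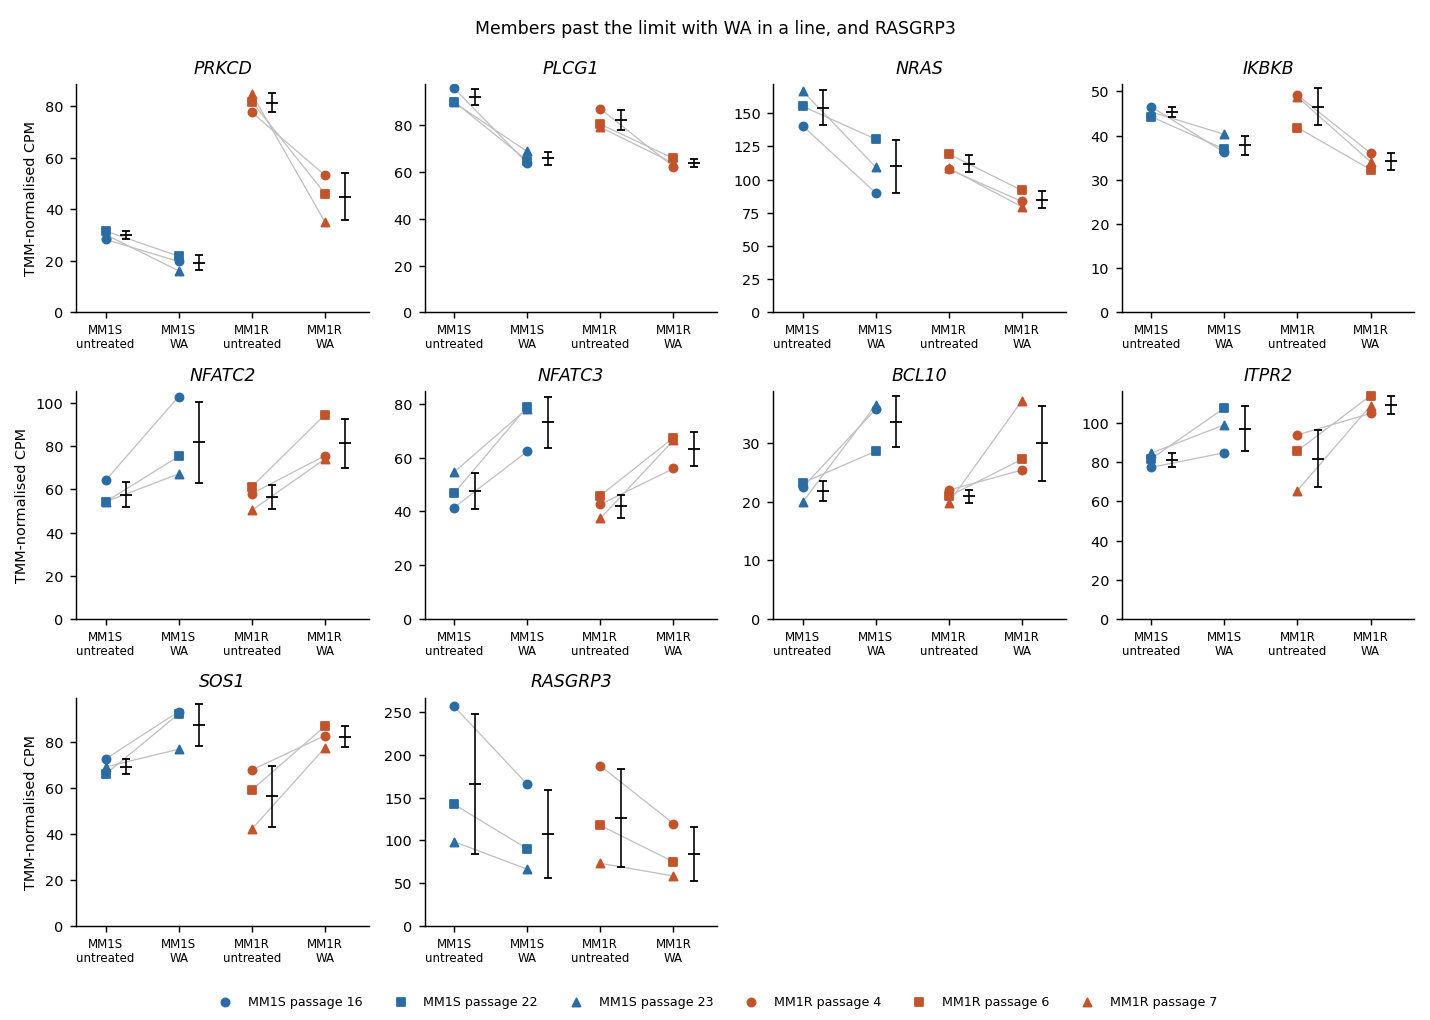
TMM-normalised CPM of the 9 genes that passed with WA in at least 1 line, and of RASGRP3, 1 point per library with grey lines joining the untreated and treated culture of a passage and black bars for the mean and SD of 3 cultures. PRKCD, PLCG1, NRAS, IKBKB and RASGRP3 are lower in all 6 pairs and NFATC2, NFATC3, BCL10, ITPR2 and SOS1 are higher in all 6, and RASGRP3 shows the wide spread between passages.

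**Figure D4:**
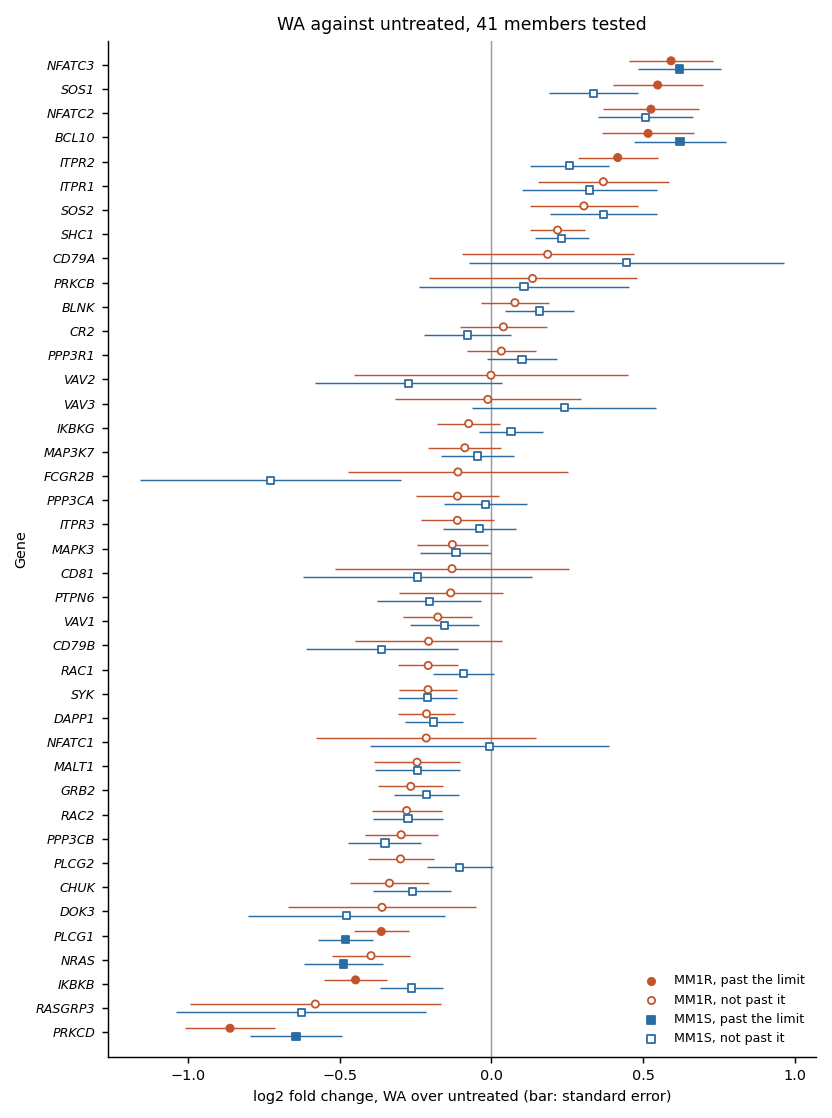
Log2 fold change of WA over untreated cells for the 41 tested genes in MM1R (circles) and MM1S (squares), with bars of 1 standard error derived from the F statistic of the unblocked edgeR fit. Filled symbols passed the limit of 0.05 on the adjusted p, and all values lie between -0.86 and 0.62.

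Whether the WA effect differed between MM1R and MM1S was tested as an interaction. None of the 41 genes passed with edgeR, and none had an unadjusted p below 0.05, beside 0 called and 97 at an unadjusted p below 0.05 among the 14085 genes. Without any effect, a calibrated test would put a share of about 0.05 of genes below that p, so the unblocked test was conservative here. It leaves the spread between passages in its error, and its lack of calls does not show that the lines respond alike. DESeq2 also passed 0 of the 41. A gene that passed in 1 line alone, such as ITPR2, SOS1, NFATC2 or IKBKB in MM1R or NRAS in MM1S, was therefore not shown to respond differently in the other line. The widest interaction estimate was that of FCGR2B, at 0.62 ± 0.56, a gene with 5 to 27 reads per library that the MM1R libraries brought past the filter.

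From the list of 42 pathway genes outside the 46, 36 were tested. BTK, the kinase that phosphorylates phospholipase C-γ2, had a mean of 8.90 CPM in untreated MM1S and 63.9 CPM in untreated MM1R (log2 fold change 2.84 ± 0.17, edgeR adjusted p = 1.70e-07), and with WA the line difference was 2.86 ± 0.17. REL, an NF-κB subunit, was lower in untreated MM1R (-1.63 ± 0.32, edgeR adjusted p = 0.00489). These 2 of the 36 genes (5.56%) passed between the untreated lines, beside 4.83% of all genes. BTK alone (2.78%) passed between the WA-treated lines, beside 4.94% of all genes. With WA 12 of 36 (33.3%) passed in MM1R (4 higher and 8 lower), beside 14.0% of all genes, and 6 of 36 (16.7%) in MM1S (2 higher and 4 lower), beside 10.5%. PIK3CG fell by 0.88 and 0.99 on the log2 scale in MM1R and MM1S, and NFKB1 fell by 0.77 and 0.65. PIK3R1 rose by 1.02 and 0.74, and JUN rose by 2.43 in MM1R (edgeR adjusted p = 0.00808), with 1.42 ± 0.51 in MM1S (edgeR adjusted p = 0.0918). BTK fell by 0.51 in MM1R (edgeR adjusted p = 0.0439), with a log2 fold change of -0.52 ± 0.17 in MM1S (edgeR adjusted p = 0.0751) and an interaction of 0.01 ± 0.23.

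The spread between passages differed among the genes. The ratio of the highest to the lowest culture within a group had a median over the 41 genes of 1.15 in untreated MM1S, 1.28 in WA-treated MM1S, 1.22 in untreated MM1R and 1.19 in WA-treated MM1R. It exceeded 2 for 6 genes in untreated MM1S and 7 in WA-treated MM1S, but for 2 genes in each MM1R group. NFATC1, DOK3, VAV2 and RASGRP3 exceeded it in both MM1S groups, and RASGRP3 in all 4 groups. Passage 16 was the highest MM1S culture for NFATC1, DOK3 and RASGRP3 and the lowest for VAV2, with ratios of 2.23 to 3.22 for NFATC1 and 2.03 to 2.55 for VAV2.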

How the data were processed

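RNA was extracted with a column kit and libraries were made at a sequencing facility. The authors deposited a table of raw read counts per gene, which was used here, and a normalized table, which was not. Their processing notes name FastQC 0.11.5, STAR 2.7.3a, hg19 and DESeq2, while the counting tool, gene models and strand setting were not given in the sources used here. No column of per-sample values was left unmapped.

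Genes with at least 10 reads by edgeR's filterByExpr over the 4 groups were kept (14085). Counts were scaled by TMM and tested in edgeR 4.0.16 (limma 3.58.1, R 4.3.3) with 1 quasi-likelihood fit to the 12 libraries, and p-values were adjusted by Benjamini-Hochberg over all genes tested. The limit was an adjusted p of 0.01 between lines and 0.05 for WA and the interaction. DESeq2 1.42.0, its size factors, other filters, the 6 libraries compared alone, the other limit, a replicate block and leaving out each library were alternatives. CPM (counts scaled to a common library size) use the TMM-scaled totals of the tested genes. Changes within a pair are differences of log2(CPM + 0.5). Standard errors (±) of edgeR fold changes were derived as the size of the log2 fold change over the square root of the test's F statistic.

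The labels give each culture's passage, and same-passage cultures of a line deviated together (correlations of deviations from group means 0.22 to 0.74, all above 0.1), so passage was treated as a pairing. For MM1S passage 22 the treated culture of passage 23 correlated more closely (0.35 against 0.26). Replicate libraries differed beyond counting noise (8.74 to 48.7 as chi-square over its degrees of freedom). The study describes its replicates as biologically independent cultures, so p-values measure the spread between cultures. On simulated counts with a 3-fold change, the edgeR fit recovered 77.2% of changed genes for the untreated lines, 81.4% with WA, 81.0% for WA in MM1R and 79.0% in MM1S. The simulated counts had no pairing by passage, and 3-fold exceeds every WA change of the 41 genes. Recovery of changes of their size was not tested. For WA in MM1R and MM1S 2.47% and 3.75% of the edgeR calls were false, and 11.7% and 13.2% of those of DESeq2.

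The 46 genes and the other lists were chosen with earlier results of these data known. Genes past a limit in any comparison were named with every library's value, others with ranges, and up to 6 genes of the list outside the 46, with BTK as a reference. Intervals cover counting error only. Promoters came from RefSeq (GRCh38.p14), matched by symbol, and exon lengths from GENCODE on GRCh37. Some items are not reported here.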

Additional observations from a re-analysis of the deposited data

How the results depend on the processing

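None of the 24 calls on the 41 genes reversed its direction under any alternative. Of their values under the alternatives, 397 still passed and 83 did not. The direction of results that did not pass was not followed in this way. The size factors of DESeq2 moved the median of all genes by 0.02 or less in size on the log2 scale. Between the untreated lines 5 of the 41 genes tested passed, beside 4.83% of all genes. DESeq2 gave 9 (8.75% of all genes) and an adjusted p of 0.05 gave 11 (11.9%). It was 8 without a filter and 4 to 9 on leaving out libraries. Of these, 8 passed without the WA-treated MM1S culture of passage 16 and 9 without both passage 16 cultures (8.87% of all genes). Between the WA-treated lines 6 passed, and 10 with DESeq2, 11 at 0.05 and 4 to 11 on leaving out libraries (11 without both passage 16 cultures). Beside 14.0% and 10.5% of all genes, 8 passed with WA in MM1R and 5 in MM1S. At a limit of 0.01 this was 1 in each line, PRKCD in MM1R and PLCG1 in MM1S. The replicate block gave 17 in MM1R with edgeR and 17 with DESeq2, and 15 and 13 in MM1S. With edgeR 29.1% of all genes passed with the block in MM1R and 24.1% in MM1S. DESeq2 without the block passed 8 in MM1S. Leaving out libraries gave 3 to 11 in MM1R (5 without untreated MM1S passage 22, 4 without untreated MM1R passage 6, 3 without passage 7, and 4 without any 1 treated MM1R culture) and 2 to 6 in MM1S (2 without untreated MM1S passage 22 or 23 or treated passage 23). The interaction stayed at 0 under all settings run, including the replicate block.

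Of the 42 pathway genes outside the 46, 36 were tested and 2 passed between untreated lines, beside 4.83% of all genes. DESeq2 gave 5 (8.75% of all genes) and a limit of 0.05 gave 8 (11.9%). It was 9 without a filter, 1 in a fit of the 6 libraries compared and 1 to 3 on leaving out libraries. With WA 1 passed between lines, and 5 without a filter, 5 with DESeq2, 5 at 0.05 and 1 to 4 on leaving out libraries (4 without both passage 16 cultures). For WA in MM1R 12 passed, beside 14.0% of all genes, and 4 at 0.01 and 4 to 15 on leaving out libraries. In MM1S 6 passed, beside 10.5% of all genes, and 16 with the replicate block by either tool, beside 24.1% with edgeR. DESeq2 without the block gave 12, a limit of 0.01 gave 2, and leaving out libraries gave 2 to 8. The interaction gave 2 without a filter. Over all genes, calls between lines went from 680 to 1508 untreated and from 696 to 1534 with WA without a filter, and the replicate block raised those with WA from 1973 to 4094 in MM1R and from 1476 to 3399 in MM1S. The causes were not tested. At 2 to 5 reads a library, the level of CD79A in MM1S is limited by depth.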
